A study of Mus musculus with 6 samples.

Results

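The 10 genes described here encode the core of the transforming growth factor beta (TGF-beta) pathway: the ligand gene Tgfb1, the receptor genes Tgfbr1, Tgfbr2 and Tgfbr3, the signal transducer genes Smad2, Smad3 and Smad4, the inhibitory Smad gene Smad7 and the corepressor genes Ski and Skil. They were taken by name, with earlier results of these data known. Each was measured by 1 probe set of an Affymetrix mouse array, and all 10 were found among 19938 genes with a single symbol. RNA came from naive CD4 T cells out of the peripheral lymph nodes of mice 6 weeks old of the strain C57BL/6 Foxp3-GFP, whose fluorescent reporter marks cells that express Foxp3. Cells were sorted as CD4+ CD8- TCRβ+ CD44-low CD25- Foxp3-, and then into a Ly-6C-positive and a Ly-6C-negative population, which differ by this surface protein as the last gate. Each population gave 3 arrays labelled as biological replicates. The labels do not say how many mice gave each array, so p-values measure the spread between these arrays, and precision is limited by the number of arrays. All values are log2 expression as deposited, and differences are given as the Ly-6C-negative level minus the Ly-6C-positive one.

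The sort and the cell type were checked first. The 2 probe sets shared by Ly6c1 and Ly6c2 were lower in the Ly-6C-negative population, by 9.03-fold and 6.03-fold (limma adjusted p = 3.94e-05 and 0.000675). Cd3d, Cd3e, Cd3g and Cd4 had group means between 10.5 and 12.4, and none of the 4 passed the test. The mean of 7 regulatory T cell markers ranged from 7.25 to 7.39 in Ly-6C-negative arrays and from 6.74 to 6.81 in Ly-6C-positive arrays, and 4 of the 7 were higher past the threshold, whereas Foxp3 differed by 0.013 (0.12 without Ly-6C-negative replicate 2) and Il2ra by 0.12. Cd44, whose product the gate set low, differed by -0.25 with groups that did not overlap (limma p of 0.00356 before and 0.427 after adjustment). Cd4 differed by -0.089, with Ly-6C-negative replicate 2 at 10.30 the lowest of the 6 arrays and Ly-6C-negative replicate 3 at 10.72 the highest. The means of the marker lists of B cells, CD8 T cells, myeloid cells, platelets (a rich source of TGF-beta) and stromal cells overlapped between the groups. That of 4 NK cell markers did not, at 4.79 to 4.92 in Ly-6C-negative and 5.22 to 5.28 in Ly-6C-positive arrays. Klrd1 was the member that passed, with a difference of -1.50. The other NK cell markers, Ncr1, Klrb1c and Klrk1, had group means between 3.83 and 4.40 and differed by -0.054, 0.0083 and -0.053. The part of these markers in the values below was not tested. In bulk samples, more cells of a type and more RNA per cell cannot be told apart. Ly-6C-negative replicate 2 stood farthest apart, with a score of 19.9 on the first principal component, which held 34.6% of the variance. At the other end was Ly-6C-negative replicate 3, at -10.0, and the remaining arrays scored between -3.89 and -0.26. Where the difference given for any of the 10 genes or the other pathway genes moved by over 1.5 times without Ly-6C-negative replicate 2, both values are given. For sort and cell type markers outside these lists, the value without that replicate is not given.

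TGF-beta is secreted in a latent form and, once released, binds the receptor kinase encoded by Tgfbr2, which recruits and activates the kinase encoded by Tgfbr1. The activated receptor phosphorylates Smad2 and Smad3, which join Smad4 and act on genes in the nucleus. Smad7 blocks the receptor and Ski and SnoN, the product of Skil, repress Smad complexes, and Smad7 and Skil are themselves induced by the signal, so both serve as feedback. In T cells the pathway restrains activation, supports the survival of naive cells and is needed for the induction of Foxp3 in peripheral regulatory T cells.

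Promoter sequences were available for 5 of the 10 genes, Tgfb1, Tgfbr1, Tgfbr2, Smad3 and Ski. The windows upstream of Ski and Tgfb1 are shown because Ski had the smallest p of the 10 genes and Tgfb1, of the other 4 with a sequence, followed Ski most closely across arrays. Each is the 250 bases before the start of the gene, from RefSeq on GRCm38.p6, 5′ to 3′ on the gene's strand, and the capitals mark matches to the GC box GGGCGG or its reverse complement CCGCCC, the motif bound by Sp1 family factors. The Ski window is chr4:155222536-155222785 on the minus strand and the Tgfb1 window chr7:25686752-25687001 on the plus strand.
Ski: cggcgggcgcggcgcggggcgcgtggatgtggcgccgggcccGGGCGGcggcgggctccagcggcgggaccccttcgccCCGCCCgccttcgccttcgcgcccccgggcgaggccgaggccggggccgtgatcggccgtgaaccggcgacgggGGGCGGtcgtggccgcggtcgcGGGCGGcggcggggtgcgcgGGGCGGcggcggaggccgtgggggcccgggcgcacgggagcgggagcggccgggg
Tgfb1: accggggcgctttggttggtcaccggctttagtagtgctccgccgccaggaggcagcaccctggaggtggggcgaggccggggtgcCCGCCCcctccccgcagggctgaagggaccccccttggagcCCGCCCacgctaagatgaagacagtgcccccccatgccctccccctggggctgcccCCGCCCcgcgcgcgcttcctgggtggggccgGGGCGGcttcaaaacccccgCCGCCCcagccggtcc
Each of these windows held 5 GC boxes, as 1.93% of 32851 windows of the same length had 5 or more and 32.7% had at least 1. In Ski the matches began between 208 and 55 bases before the start, and in Tgfb1 between 164 and 16 bases before it. The window of Smad3 held 2 GC boxes, that of Tgfbr2 none, and the pair of windows listed for Tgfbr1 held 2 and 0. The palindrome GTCTAGAC, which Smad3 and Smad4 bind, was found in none of the windows of these 5 genes and in 0.167% of all windows. The shorter element CAGAC, on either strand, was found once in a Tgfbr1 window and once in the Tgfbr2 window, and in 42.2% of all windows. A match describes the letters of the window and is no measured binding site.

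The 10 genes differed little between Ly-6C-negative and Ly-6C-positive cells. None passed the limma threshold of adjusted p 0.05 in the fit over all genes, where 0.145% of genes did (29 of 19938), 0.1% being higher in Ly-6C-negative cells. A fit that also held the replicate number (replicate block) likewise called none of them, and 0.206% of all genes. At an unadjusted limma p under 0.05 there were 2 members, Ski and Tgfbr3, both higher in Ly-6C-negative cells, where 6.71% of all genes had such a p. Of the 10 differences, 8 lay above 0 and 2 below, with a median of 0.067, against a median of -0.0048 over all genes, 47.8% of which lay above 0. The typical size of a difference was close to that of other genes: the median absolute difference was 0.067 for the 10 genes and 0.062 over all genes. The 10 genes were all bright, with mean levels from percentile 72.5 (Tgfb1) to 94.3 (Smad2) of all genes, while the background includes dim genes. Over the 9969 genes at or above the median level, the median difference was 0.0099. The share above 0 and the median absolute difference were not taken over these brighter genes alone. The 95% limma intervals of the 10 differences reached at most 1.27-fold higher, for Ski, and at the other end 0.820 times the Ly-6C-positive level, for Smad7.

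**Figure D1:**
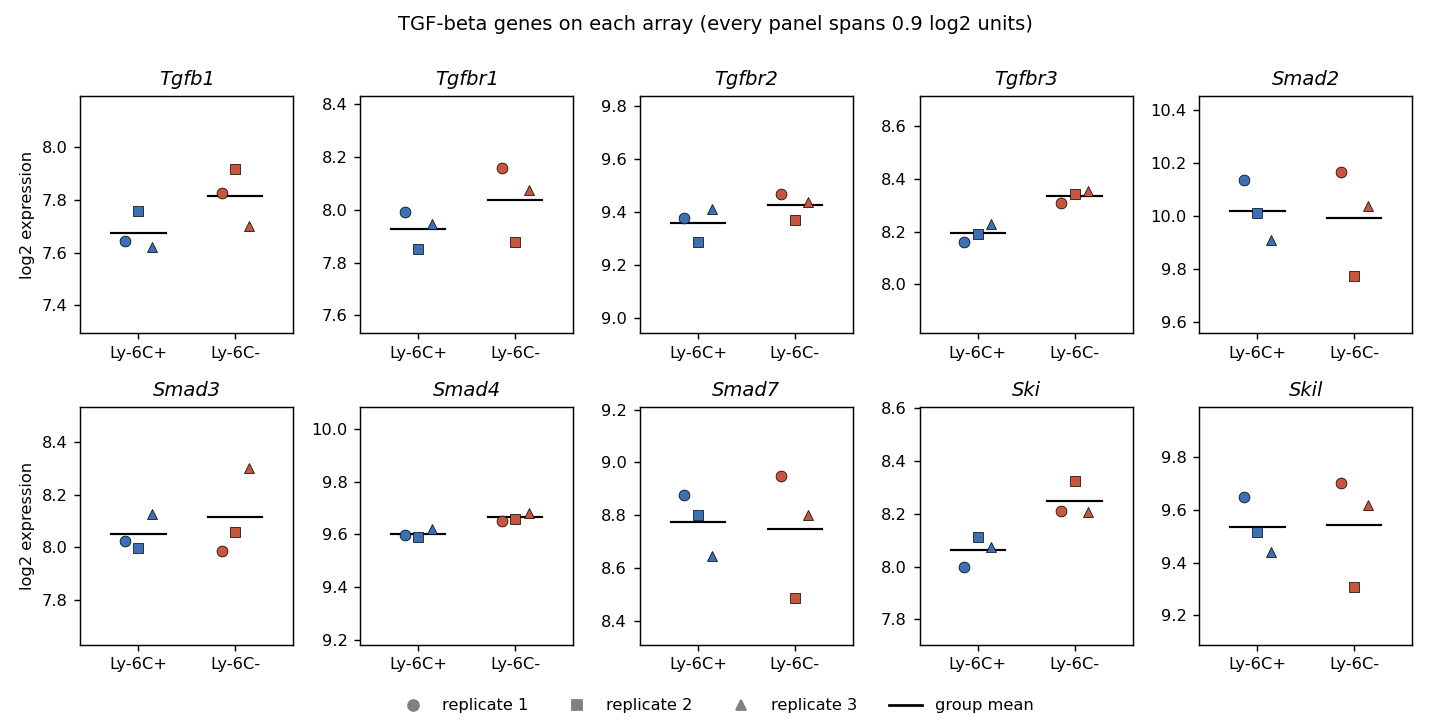
Log2 expression of each of the 10 genes on the 3 Ly-6C-positive (blue) and 3 Ly-6C-negative (red) arrays, with 1 symbol per replicate number and a bar at the group mean. Every panel has the same height in log2 units, and the groups are apart in Tgfbr3, Smad4 and Ski and overlap in the other 7 genes.

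Tgfb1 encodes the TGF-beta form that predominates in lymphocytes. It measured 7.64, 7.76 and 7.62 in Ly-6C-positive replicates 1, 2 and 3 and 7.83, 7.92 and 7.70 in Ly-6C-negative replicates 1, 2 and 3. The lowest Ly-6C-negative array lay below the highest Ly-6C-positive array, so the groups overlapped, although each Ly-6C-negative array was above the Ly-6C-positive array of the same number. The difference was 0.14 ± 0.078 (standard error; limma adjusted p = 0.819), and with Ly-6C-negative replicate 2, its highest array, left out it was 0.089 (limma adjusted p = 0.752).

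The receptor genes lay a little higher in Ly-6C-negative cells on average, none past the threshold. Tgfbr2, the gene of the ligand-binding receptor kinase, measured 9.38, 9.29 and 9.41 in Ly-6C-positive cells and 9.47, 9.37 and 9.44 in Ly-6C-negative cells. The groups overlapped, and the difference was 0.068 ± 0.068 (standard error; limma adjusted p = 0.913). It was 0.032 with Ly-6C-positive replicate 2, the lowest array, left out, and 0.046 to 0.095 with any other array left out. Tgfbr1, the gene of the kinase that phosphorylates Smads, measured 7.99, 7.85 and 7.94 in Ly-6C-positive cells and 8.16, 7.88 and 8.08 in Ly-6C-negative cells. In both populations replicate 2 was the lowest array. Its difference was 0.11 (limma adjusted p = 0.888), and it was 0.19 when Ly-6C-negative replicate 2 was left out (limma adjusted p = 0.489), 0.048 when Ly-6C-negative replicate 1 was, and 0.069 when Ly-6C-positive replicate 2 was.

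Tgfbr3 encodes betaglycan, a coreceptor without kinase activity that presents the ligand to the other receptors. It measured 8.16, 8.19 and 8.23 in Ly-6C-positive cells and 8.31, 8.34 and 8.35 in Ly-6C-negative cells. The arrays of each population lay close together and the groups did not overlap, with all Ly-6C-negative arrays higher. The difference was 0.14 with a 95% interval from 0.0012 to 0.28, or 1.10-fold in the limma fit. Its limma p was 0.0485 before and 0.742 after adjustment over all genes. In the fit with the replicate block the unadjusted limma p was 0.0787.

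Smad3 and Smad2 are the transducers that the receptor phosphorylates. Smad3 measured 8.02, 7.998 and 8.13 in Ly-6C-positive cells and 7.99, 8.06 and 8.30 in Ly-6C-negative cells. The lowest and the highest of the 6 arrays were both Ly-6C-negative. The difference was 0.066 (limma adjusted p = 0.941), and without Ly-6C-negative replicate 3, the highest array, it was -0.026. Smad2 measured 10.13, 10.01 and 9.91 in Ly-6C-positive cells and 10.17, 9.77 and 10.04 in Ly-6C-negative cells. Its lowest array was Ly-6C-negative replicate 2, and the difference was -0.025 with it (limma adjusted p = 0.986) and 0.085 without it (limma adjusted p = 0.789).

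Smad4 encodes the common partner of the phosphorylated Smads. It was the steadiest of the 10 genes, with a standard deviation of 0.037 over the 6 arrays, and measured 9.60, 9.59 and 9.62 in Ly-6C-positive cells and 9.65, 9.66 and 9.68 in Ly-6C-negative cells. The groups did not overlap, and the same-numbered arrays differed by 0.055, 0.070 and 0.062. The mean difference was 0.062, or 1.04-fold (limma adjusted p = 0.913). Arrays of the groups failed to overlap in 3 of the 10 genes, Tgfbr3, Smad4 and Ski, each time with Ly-6C-negative cells higher, as in 6.12% of all genes in that direction and 12.6% in either.

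Smad7, the feedback inhibitor at the receptor, measured 8.88, 8.80 and 8.65 in Ly-6C-positive cells and 8.95, 8.49 and 8.80 in Ly-6C-negative cells. The lowest and the highest values were again both Ly-6C-negative. The difference was -0.028 ± 0.12 (standard error; limma adjusted p = 0.986), and with Ly-6C-negative replicate 2 left out it was 0.10 (limma adjusted p = 0.748).

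The corepressor genes did not share a pattern. Ski measured 7.998, 8.11 and 8.07 in Ly-6C-positive cells and 8.21, 8.32 and 8.21 in Ly-6C-negative cells. All Ly-6C-negative arrays lay above all Ly-6C-positive arrays, and the same-numbered arrays differed by 0.21, 0.21 and 0.13. The difference of 0.19, or 1.14-fold, with a 95% interval from 0.031 to 0.34, was larger than those of the other 9 genes, and 92.9% of all genes had an absolute difference no larger. Its limma p was 0.0233 before and 0.644 after adjustment over all genes, and 0.0291 and 0.617 with the replicate block. Skil, the gene of SnoN, measured 9.65, 9.52 and 9.44 in Ly-6C-positive cells and 9.70, 9.31 and 9.62 in Ly-6C-negative cells. The groups overlapped throughout, and the difference was 0.0078 with a 95% interval from -0.23 to 0.24 (limma adjusted p = 0.998).

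**Figure D2:**
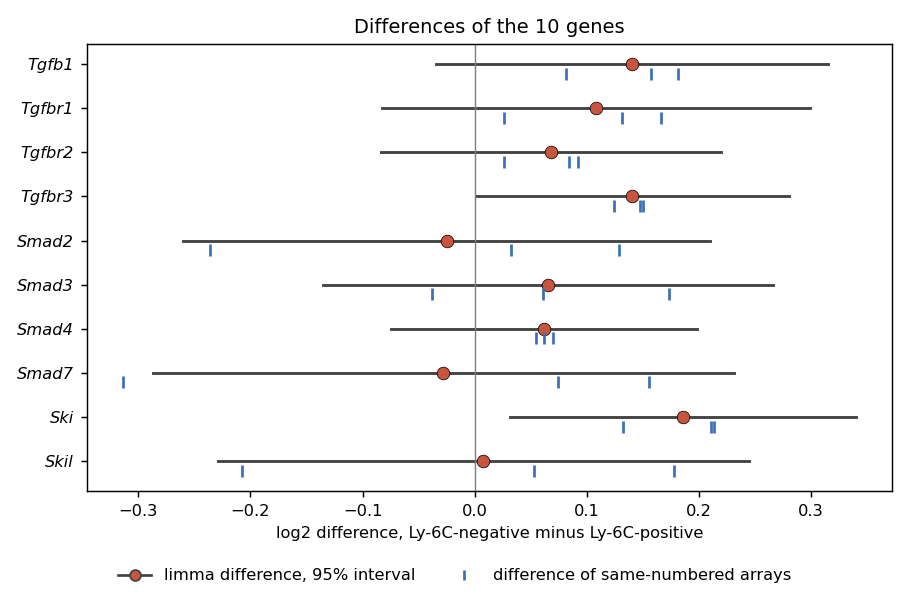
Difference in log2 expression, Ly-6C-negative minus Ly-6C-positive, of each of the 10 genes (circle) with its 95% limma interval (line), and the differences of the same-numbered arrays (blue ticks). The intervals of Ski and Tgfbr3 lie above 0, those of the other 8 genes include 0, and in Smad2, Smad7 and Skil 1 tick, that of replicate 2, lies between -0.31 and -0.21, to the left of the others.

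Smad2, Smad7 and Skil varied together from array to array, across both populations. All 3 were highest in Ly-6C-negative replicate 1, followed by Ly-6C-positive replicate 1, and lowest in Ly-6C-negative replicate 2, and they ranked all 6 arrays in the same order. Over the 6 arrays Smad2 and Smad7 correlated with Pearson r = 0.992, Smad2 and Skil with r = 0.985 and Smad7 and Skil with r = 0.976, with Spearman rho = 1 for each pair. Each r had an exact permutation p of 0.00139, the smallest that the 6 arrays can give, and 0.0208 after Benjamini-Hochberg adjustment over the 45 pairs of the 10 genes, of which these were the 3 that passed. For each rho the exact permutation p was 0.00278 and 0.0417 after adjustment. These permutations exchanged all 6 arrays freely and so took account neither of the populations nor of the replicate numbers, which makes the p-values approximate. Without the 2 arrays farthest from the median of the first gene of each pair, r was 0.968, 0.938 and 0.848. Without Ly-6C-negative replicate 2 it was 0.980, 0.962 and 0.940.

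In that array Smad7 lay 0.33 below the mean of the other 5 arrays, where 2.55% of all genes lay as far down or farther. Smad2 and Skil each lay 0.28 below, where 4.49% and 4.55% of all genes did. Tgfb1 and Ski went the other way and lay 0.21 and 0.20 above, where 9.33% and 9.57% of all genes lay as far up. Smad2, Smad7 and Skil correlated with the first principal component at r = -0.72, -0.73 and -0.76, and its part in their shared variation was not tested. Leaving out the array put all 10 differences above 0, with Smad2, Smad7 and Skil at 0.085, 0.10 and 0.12, and none passed the limma threshold (the lowest adjusted p was 0.489, for Tgfbr1).

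**Figure D3:**
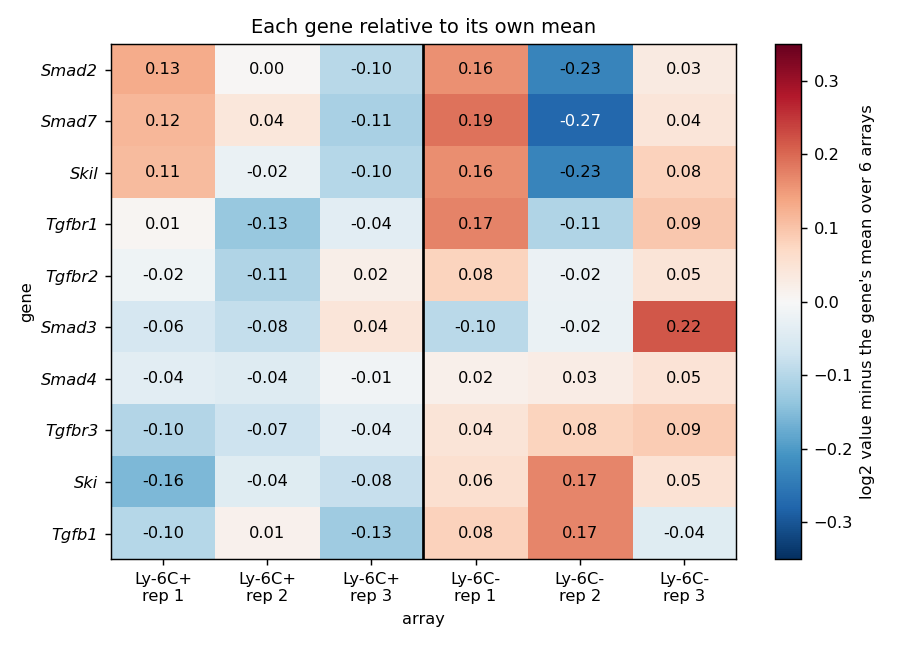
Log2 expression of each gene minus its own mean over the 6 arrays (colour and printed value), with arrays in columns and the populations divided by a line. Smad2, Smad7 and Skil share 1 pattern, with Ly-6C-negative replicate 2 at -0.23, -0.27 and -0.23, and Tgfbr3, Smad4 and Ski are below their mean on each Ly-6C-positive array and above it on each Ly-6C-negative array.

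Among the remaining pairs, Tgfbr3 and Smad4 correlated with r = 0.969, Tgfbr3 and Ski with r = 0.897, Tgfbr1 and Tgfbr2 with r = 0.882 and Tgfb1 and Ski with r = 0.864, with exact permutation p of 0.00972, 0.0250, 0.0181 and 0.0292. None passed after adjustment over the 45 pairs (0.109 for the first and 0.163 to 0.188 for the others). Spearman rho was 0.943, 0.771, 0.943 and 0.886 (exact permutation p of 0.0167, 0.103, 0.0167 and 0.0333). Without the 2 arrays farthest from the median of the first gene, r was 0.976, 0.911, 0.759 and 0.701. Tgfbr3, Smad4 and Ski are genes whose groups did not overlap, and a shared group difference raises such a correlation. After each array was set against its group mean, r was 0.762 for Tgfbr3 and Smad4, 0.434 for Tgfbr3 and Ski and -0.223 for Smad4 and Ski, and it was 0.992, 0.992 and 0.983 for the pairs of Smad2, Smad7 and Skil in the order above. Of the 9969 genes at or above the median level, those most like Ski over the 6 arrays were Wdr53 (r = 0.993), Net1 (r = 0.991) and Dnajc2 (r = 0.980), with 35 genes above r = 0.95. The genes most like Smad7 were Smad2 itself, Slc16a1 (r = 0.991) and Nmnat2 (r = 0.987), with 32 genes above r = 0.95. These are the highest r out of many genes over 6 arrays, so high values can arise by chance, and they were not tested. A shared group difference also raises r with Ski, and no r within groups was taken for these genes.

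The other genes of the pathway were read from lists by role. Of 78 listed genes 75 were measured, and 1 passed the limma threshold, lower in Ly-6C-negative cells: Gzma, the gene of granzyme A, a protease of cytotoxic cells that TGF-beta can repress. Under the replicate block 3 passed, Gzma lower and Id2 and Nt5e higher. All 3 belong to the list of response genes. The 75 genes had a median difference of 0.026, with 43 above 0 and 32 below, and 10 had an unadjusted limma p under 0.05, or 13.3% against 6.71% of all genes.

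**Figure D4:**
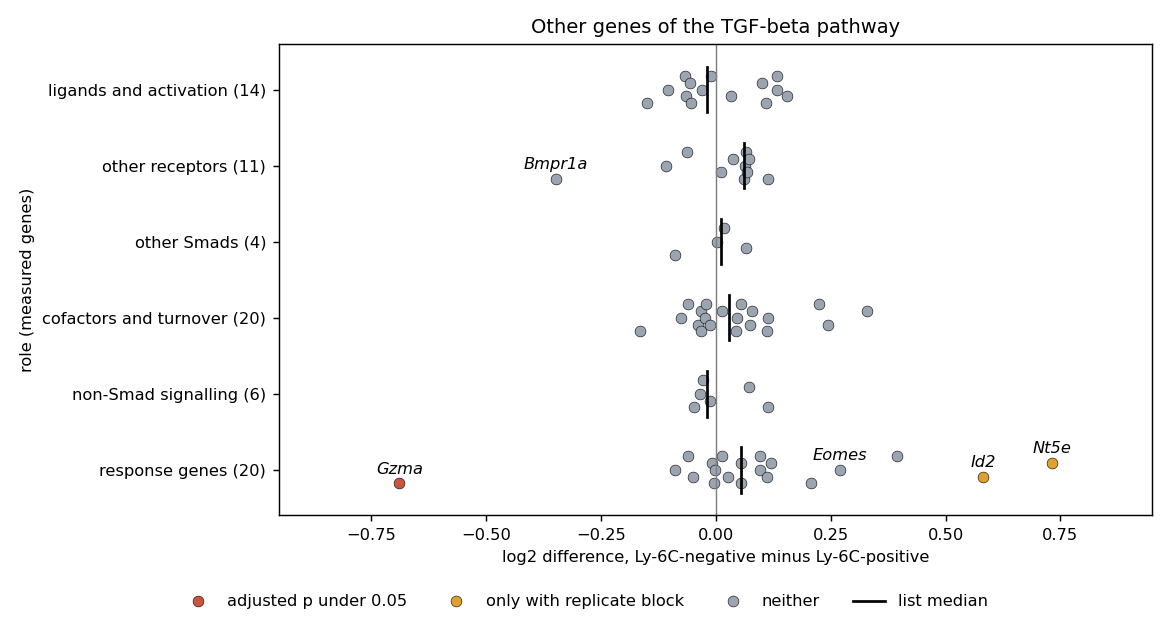
Difference in log2 expression, Ly-6C-negative minus Ly-6C-positive, of 75 other TGF-beta pathway genes by role, with the list median as a bar and colours for genes past an adjusted limma p of 0.05 without or only with the replicate block. Most points lie near 0, and Gzma at -0.69 and Id2 and Nt5e at 0.58 and 0.73 lie far from it.

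Genes of ligands and their activation did not pass, in either direction, in any of the 14 measured. Furin, the protease that cleaves the TGF-beta precursor, differed by 0.16, Tgfb2 by 0.13 and Inhba, the gene of an activin chain, by 0.13, all with groups that did not overlap and limma adjusted p of 0.720, 0.801 and 0.811. Tgfb2 and Inhba had group means from 5.72 to 5.89, below the median level of all genes. The median of the list was -0.019. Of 11 other receptors of the family none passed. Bmpr1a, a receptor for bone morphogenetic proteins, measured 4.87, 4.74 and 4.66 in Ly-6C-positive cells and 4.54, 4.37 and 4.32 in Ly-6C-negative cells. The groups did not overlap, and the difference of -0.35 had a limma adjusted p of 0.357, or 0.174 with the replicate block. These values lie below the median level of all genes, where RMA compresses differences. Acvr2b, an activin receptor gene, differed by -0.11 and Acvrl1 by 0.071 (0.028 without Ly-6C-negative replicate 2), and the median of the list was 0.061.

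None of the 4 other Smad genes passed, with Smad1 at -0.089, Smad9 at 0.065 and Smad5 at 0.019. Without Ly-6C-negative replicate 2 Smad1 was at -0.15 and Smad5 at 0.12, and with single arrays left out Smad5 ran from -0.043 to 0.12. Of 20 genes of Smad cofactors and turnover none passed. Smurf2, a ubiquitin ligase that targets the receptor together with Smad7, measured 10.44, 10.24 and 10.44 in Ly-6C-positive cells and 10.57, 10.59 and 10.94 in Ly-6C-negative cells. The groups did not overlap, and the difference was 0.33 (limma adjusted p = 0.578). Pmepa1, a TGF-beta induced gene whose product limits Smad activation, measured 7.52, 7.75 and 7.76 in Ly-6C-positive cells and 7.91, 7.91 and 7.90 in Ly-6C-negative cells. Again the groups did not overlap, with a difference of 0.22 (limma adjusted p = 0.622). The related ligase gene Smurf1 differed by 0.11. None of 6 genes of signalling outside the Smads passed, with Map3k7, the gene of the kinase TAK1, at 0.11, Tab1 at 0.073 and Mapk14 at -0.048. The signs of Tab1 and Mapk14 rest on single arrays: with 1 array left out Tab1 ran from -0.0045 to 0.16 and Mapk14 from -0.12 to 0.020, and both turned without Ly-6C-negative replicate 2.

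Of 20 measured genes known to respond to TGF-beta in T cells or other cells, Gzma was the one past the threshold. It measured 6.17, 6.22 and 5.95 in Ly-6C-positive cells and 5.52, 5.50 and 5.24 in Ly-6C-negative cells. The groups did not overlap, and the level in Ly-6C-negative cells was 1.61-fold lower (difference -0.69, limma adjusted p = 0.0392, or 0.00489 with the block). The call was lost in 5 of the 6 fits that left out an array, in all but the one without Ly-6C-negative replicate 2, with limma adjusted p from 0.0354 to 0.290, while the difference itself stayed between -0.77 and -0.60. Klrd1, an NK cell marker, was also lower, by 2.83-fold (limma adjusted p = 0.0263), while Ncr1, Klrb1c and Klrk1 had group means between 3.83 and 4.40 and differed by -0.054, 0.0083 and -0.053; the part of NK cells was not tested.

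Id2, a transcriptional inhibitor, measured 8.78, 8.86 and 8.57 in Ly-6C-positive cells and 9.26, 9.53 and 9.16 in Ly-6C-negative cells. The groups did not overlap, and the difference was 0.58 (limma adjusted p = 0.144, or 0.0158 with the block). Nt5e, the gene of the ectoenzyme CD73, measured 7.21, 7.04 and 7.68 in Ly-6C-positive cells and 7.79, 7.89 and 8.44 in Ly-6C-negative cells. In both populations replicate 3 was the highest array, and the difference was 0.73 (limma adjusted p = 0.427, or 0.00602 with the block). Id3, which is related to Id2, differed by 0.39 (limma adjusted p = 0.736), with Ly-6C-negative replicate 2 at 8.09 above the other 5 arrays at 7.14 to 7.39, and by 0.15 without that array. Eomes, a T-box factor gene, and Il2, the gene of the growth factor IL-2, both repressed by TGF-beta in T cells, differed by 0.27 and 0.21 with groups that did not overlap (limma adjusted p of 0.473 and 0.586). Il2 had group means of 4.66 in Ly-6C-positive and 4.87 in Ly-6C-negative cells, well below the median level of all genes, so whether it was expressed is uncertain. Itgae, the gene of the integrin chain CD103, which TGF-beta induces, differed by -0.088 with groups that did not overlap, and with Ly-6C-negative replicate 2 left out by -0.050 (limma adjusted p of 0.886 and 0.855). Its group means of 5.52 in Ly-6C-positive and 5.43 in Ly-6C-negative cells were also below that median level. In 7 of the 20 measured response genes, all named above, the groups did not overlap, against 12.6% of all genes. Of these 7 differences, 5 were positive and 2 negative. Relative to TGF-beta the directions were mixed: Gzma, which it can repress, was lower, while Eomes and Il2, which it represses, were higher. Itgae, which it induces, was lower. No direction of response is given here for Id2, Id3 and Nt5e, and the strength of the signal was not tested. The median of the list was 0.055, with 13 above 0 and 7 below. The groups overlapped in its other genes, which ran from -0.061 (Runx3) to 0.12 (Myc), with Ifng at 0.026 and Tbx21 at -0.0013. Without Ly-6C-negative replicate 2, Runx3, Myc, Ifng and Tbx21 were at -0.0045, -0.080, 0.050 and -0.030.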

How the data were processed

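The deposited log2 values of 28853 probe sets on 6 arrays were used as the authors gave them; the submitters' processing notes name RMA and Partek without version or role, and the genome build of the probe sets is not given in the sources used here. RMA subtracts background and equalises the arrays' distributions, so a shift common to every gene is not visible, and dim genes show compressed differences. Array medians ran from 6.25 to 6.27 in Ly-6C-negative arrays and from 6.28 to 6.29 in Ly-6C-positive arrays. Each Ly-6C-negative median was thus below each Ly-6C-positive one. Probe sets with 1 symbol in the platform annotation (21789, of which 21698 were matched by Entrez ID to current symbols) were kept, with the brightest for each of 19938 genes.

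The populations were compared by limma 3.58.1 under R 4.3.3 (eBayes after lmFit, 2-sided, Benjamini-Hochberg over all genes, threshold 0.05, no covariate). For the 2 Ly6c probe sets the fit and the adjustment ran over all 28853 probe sets. On simulated data of 19938 genes with 200 changed, in 10 runs, changes of 0.2, 0.5 and 1 were called at 1.6%, 60.6% and 95.2%. There each gene was drawn independently from a normal distribution, with the measured spreads exchanged among genes. The simulated arrays held no array that stood apart and no pairs. Arrays with the same number deviated together from their group means, with r of 0.129, 0.128 and 0.107, all above the bound of 0.1 for reading the numbers as pairs, so a fit with the replicate block is given where it changes a call. No label states the pairing, which comes from the values alone.

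The 10 genes and the lists were chosen with earlier results of these data known. The genes named are the 10 genes, up to 3 genes per role with the smallest p and any past the threshold, the 3 genes most like Ski (smallest p) and like Smad7 (largest spread), and the genes of the sort. Further genes that are named, such as Eomes, Il2, Id3 and Itgae among the response genes, were chosen after their values were seen. Figures were drawn with matplotlib 3.10.9.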

Additional observations from a re-analysis of the deposited data

How the results depend on the processing

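All alternatives were planned. None of the 10 genes passed the limma threshold under any of the 14 alternatives or at an adjusted p of 0.1, and Tgfb1, Tgfbr1, Tgfbr2, Tgfbr3, Smad4 and Ski stayed above 0 in all 14. Leaving out 1 array at a time moved Smad2 between -0.11 and 0.085, Smad3 between -0.026 and 0.13, Smad7 between -0.13 and 0.10 and Skil between -0.072 and 0.12, so that the sign of these 4 rests on single arrays. Array weights put Smad2 at 0.040 and Smad7 at 0.047, and a second quantile normalization put Skil at -0.0063. The median of the 10 differences ran from 0.048 to 0.099. Subtracting the array medians, which were lower in Ly-6C-negative arrays, raised it from 0.067 to 0.088. Ski and Tgfbr3 then had an unadjusted limma p of 0.0145 and 0.0300, and a limma adjusted p of 0.558 and 0.640. Of the other pathway genes 3 passed with the replicate block and 0 without dim genes (Gzma was then not tested) or with every probe set as its own feature, and 0 to 1 without an array. Over all genes the count of 29 became 54 with array weights, 45 with every probe set, and 5 to 47 without an array, with 5 when Ly-6C-negative replicate 1 and 47 when Ly-6C-negative replicate 2 was left out. The replicate block changed no other call of the genes reported. The number of arrays limits what can be seen: on simulated data a change of 0.2, about that of Ski, was called in 1.6% of cases. That rate is an average over genes of exchanged spreads, without an array that stood apart, and is not the rate for Ski itself.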
